A study of Homo sapiens with 8 samples.

Results

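The genes examined here are 10 genes of pericellular matrix proteolysis: 6 matrix metalloproteinases (MMP1, MMP2, MMP3, MMP9, MMP14 and MMP15), 3 tissue inhibitors of metalloproteinases (TIMP1, TIMP2 and TIMP3) and BSG, which encodes basigin, a cell-surface glycoprotein known as an inducer of metalloproteinases. They were listed by name, with earlier results of these data known, and all 10 were found among the 54174 gene symbols of the deposited table. The study sequenced total RNA of 143B, an established human osteosarcoma line, 48 h after transient transfection. There were 4 control libraries, labelled as transfected with a vector plasmid, and 4 knockout libraries, labelled as transfected with a NELL1KO plasmid. Both groups carried the same transfection reagent and culture conditions, and the labels give neither the nuclease or guide of the NELL1KO plasmid nor the share of edited cells.

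Matrix metalloproteinases are zinc endopeptidases that are made as inactive precursors and, once activated, cleave collagens, laminins, fibronectin and other matrix and cell-surface proteins. TIMPs bind the active site of these enzymes and block it, and TIMP2 also bridges MMP14 and the precursor of MMP2 at the cell surface, where MMP14 activates MMP2. In osteosarcoma and other invasive tumours the family is known for its part in matrix remodelling and spread. Transcript levels, which are what was measured here, do not give the amount of active enzyme.

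Values are log2 expression. They were quantile normalized between libraries (median 1.77 in each), so a difference is relative to the other transcripts of the library. For low genes with 1 annotated transcript, the value plus the log2 of the transcript length fell on steps spaced like 1, 2 and 3 reads, so the values are per length and base 2, and levels may be compared between genes. Knockout libraries 1 and 2 differed from each other by 0.12 (SD over genes of the log2 difference) and knockout libraries 3 and 4 by 0.13, but the pairs differed from one another by 0.46 to 0.50, more than any knockout library differed from a control (0.36 to 0.45). The difference of each of the 10 genes is therefore given also within replicates 1 and 2 and within replicates 3 and 4. These sets are not in the labels, and their origin was not tested. NELL1 itself, a secreted glycoprotein, did not check the labels: its log2 level was -6.97, -6.97, -4.53 and -5.00 in control libraries 1 to 4 and -4.82, -5.87, blank and -6.96 in knockout libraries 1 to 4, about 1 to 5 reads each (difference -0.01, exact two-sided permutation test, p = 1, smallest possible p = 0.0286). Of 9 osteoblast lineage markers, 5 had a value in all 8 libraries; SP7 and IBSP were blank throughout and RUNX2 and COL1A1 had control means of 0.20 and 0.06. SPP1, which encodes osteopontin, was the 1 marker of the list with a mean of at least 1, at 3.75 ± 0.76 in the controls (SD, n = 4), and the mesenchymal gene VIM stood at 10.83 ± 0.03 (SD, n = 4).

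No gene of the 10 was blank in any library. MMP3 and MMP15 were low, with a mean below 1 over the 8 libraries, and did not pass the filter of the main test, so they were read from the same fit without that filter. Between the groups, 4 of the 10 genes changed, and all 4 fell: MMP9, MMP14, MMP1 and TIMP1. They are 4 of the 8 genes that passed the filter, where 13.1% of all 9016 tested genes were called in either direction, 6.1% lower and 7.02% higher (limma, Benjamini-Hochberg adjusted p under 0.05). Without the filter 8.3% of 13943 genes were called, MMP3 and MMP15 not among them. The control and knockout values of these 4 genes did not overlap, and those of the other 6 did. Groups that do not overlap were found for 22.9% of all tested genes, with the knockouts lower for 10.4%. The replicate number as a block, in a fit that called 10.2% of all genes, left the same 4 of the 10 called. With each close pair of knockout libraries averaged to 1 library, MMP9 alone of the 10 stayed under the threshold, in a fit that called 1.2% of all genes. Precision rests on 4 libraries a group, and limma takes them as independent, which the close pairs may not be. In RNA of a whole culture, fewer cells that make a transcript and less of it per cell cannot be told apart.

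**Figure D1:**
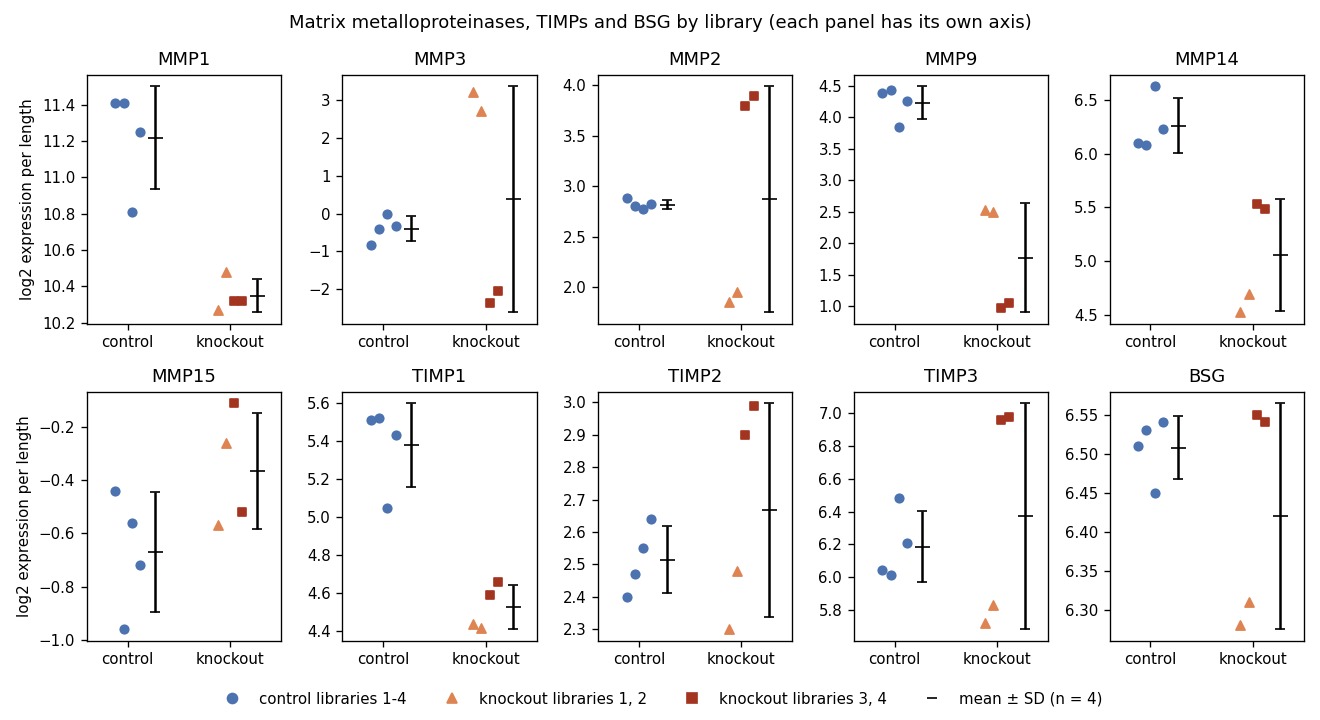
Log2 expression per length (vertical axis, separate for each gene) of the 10 genes in the 4 control and 4 knockout libraries, with the mean and SD (n = 4) beside the points. MMP1, MMP9, MMP14 and TIMP1 are lower in all 4 knockout libraries than in any control, whereas for MMP2, MMP3 and TIMP3 knockout libraries 1 and 2 lie on one side of the controls and knockout libraries 3 and 4 on the other.

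In the controls the members spanned a wide range of levels per length. MMP1 was far above the rest at 11.22 ± 0.28 (SD, n = 4), 26.2-fold above BSG, the next gene in order, and it ranked 3rd to 36th among all genes of a library. BSG (6.51), MMP14 (6.26) and TIMP3 (6.19) followed, and neighbours in that order overlapped. TIMP1 (5.37), MMP9 (4.23), MMP2 (2.82) and TIMP2 (2.51) came next, each separated from the gene before it. MMP3 (-0.40) and MMP15 (-0.67) were at the bottom and overlapped each other. In the knockouts MMP1 was again first, 15.2-fold above BSG, and by the mean of the 4 libraries MMP9 stood eighth, after MMP2 and TIMP2, whose values its own overlapped. That order held in knockout libraries 3 and 4, whereas in knockout libraries 1 and 2 MMP9 was above both.

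MMP1 encodes interstitial collagenase, which cuts the triple helix of fibrillar collagens. The gene lies on chromosome 11 (102789919 to 102798160; RefSeq, GRCh38.p14). Its log2 level was 11.41, 11.41, 10.81 and 11.25 in control libraries 1 to 4 and 10.27, 10.48, 10.32 and 10.32 in knockout libraries 1 to 4. All knockout values lay below the lowest control, control library 3, and the 4 knockout values were closer together (SD 0.09) than the controls (SD 0.28). MMP1 fell 1.83-fold, a log2 difference of -0.87 ± 0.13 (SE; limma adjusted p = 0.00673). Replicates 1 and 2 alone gave -1.03, and replicates 3 and 4 alone gave -0.71. With the knockout pairs averaged the limma adjusted p was 0.0678. The step of 1 read, taken from low genes, would put the MMP1 values at about 82647 to 201662 reads each. MMP1 stands so near the top of every library that these numbers are rough, because quantile normalization assigns the few top ranks almost fixed values.

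MMP3 encodes stromelysin-1, which degrades proteoglycans, laminin and fibronectin and can activate other precursors of the family. It lies 37.6 kb from MMP1 on chromosome 11 (102835801 to 102843609). Its log2 level was -0.83, -0.42, -0.01 and -0.33 in the controls, 3.20 and 2.72 in knockout libraries 1 and 2, and -2.36 and -2.05 in knockout libraries 3 and 4. The first pair stood above every control and the second pair below every control. Over all 8 libraries the difference was 0.77 with a 95% confidence interval of -2.28 to 3.83 (limma without the filter, adjusted p = 0.748). Within replicates 1 and 2 MMP3 was 12-fold higher in the knockout (log2 difference 3.58, limma adjusted p = 0.0122). Within replicates 3 and 4 it was 4.10-fold lower (log2 difference -2.03, limma adjusted p = 0.0187). These fits called 34.9% and 16.2% of 13943 genes, and 1.77% were called in both in opposite directions. Both fits take the libraries of a set as independent, which the close knockout pairs may not be. In the size of the difference between the knockout pairs, 5.16 log2 units, MMP3 ranked 2nd of those 13943 genes. The implied reads were about 42 to 68 in the controls, 629 and 461 in knockout libraries 1 and 2, and 15 and 19 in knockout libraries 3 and 4. The difference between the sets themselves was not tested.

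The gelatinases MMP2 and MMP9 cleave denatured collagen and the collagen IV of basement membranes. MMP9 lies on chromosome 20 (46008908 to 46016561). Its log2 level was 4.38, 4.43, 3.85 and 4.26 in control libraries 1 to 4 and 2.53, 2.50, 0.98 and 1.06 in knockout libraries 1 to 4. Each knockout library was more than 1 log2 unit below the lowest control, and knockout libraries 3 and 4 were lower than knockout libraries 1 and 2. MMP9 fell 5.50-fold, by a log2 difference of -2.46 ± 0.38 (SE; limma adjusted p = 0.00696). Within replicates 1 and 2 it was 3.70-fold lower, and within replicates 3 and 4 8.18-fold lower. It stayed under the threshold in all 19 alternative fits, in which the log2 difference ranged from -3.03 to -1.89 and the limma adjusted p from 2.27e-05 to 0.0387.

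MMP2, the other gelatinase, lies on chromosome 16 (55478830 to 55506691). Its control values were close together, at 2.88, 2.80, 2.77 and 2.82. The knockout values were 1.85 and 1.95 in libraries 1 and 2 and 3.79 and 3.89 in libraries 3 and 4. The knockout mean of 2.87 thus described none of the knockout libraries, which lay about 1 log2 unit below or above all controls. The difference over all 8 libraries was 0.05 (95% confidence interval -1.02 to 1.12; limma adjusted p = 0.954). Within replicates 1 and 2 MMP2 was 1.91-fold lower in the knockout (limma adjusted p = 9.74e-05), and within replicates 3 and 4 it was 2.05-fold higher (limma adjusted p = 0.00027). Fits within these sets called 59.7% and 33.1% of the 9016 genes. Their p-values take the libraries of a set as independent, which the close knockout pairs may not be. The gelatinases therefore did not share a pattern: MMP9 was lower than the controls in all 4 knockout libraries, MMP2 in knockout libraries 1 and 2 only.

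MMP14 and MMP15 encode membrane-type metalloproteinases, which are anchored in the cell surface. MMP14 lies on chromosome 14 (22836585 to 22847758). Its log2 level was 6.10, 6.08, 6.63 and 6.23 in control libraries 1 to 4 and 4.52, 4.69, 5.53 and 5.48 in knockout libraries 1 to 4. All knockout values lay below all controls, with libraries 1 and 2 lower than libraries 3 and 4. MMP14 fell 2.30-fold, by a log2 difference of -1.20 ± 0.25 (SE; limma adjusted p = 0.018), with -1.48 for replicates 1 and 2 and -0.92 for replicates 3 and 4. Of the 4 calls this one depended most on the libraries used: the limma adjusted p was 0.0504 without control library 1, 0.0602 without control library 4 and 0.0764 with the knockout pairs averaged.

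MMP15 lies on the same chromosome as MMP2 (58025754 to 58046901 on chromosome 16). It had the lowest mean of the 10 genes in both groups, with about 82 to 155 reads a library. By library, MMP3 was lower than MMP15 in control library 1 and in knockout libraries 3 and 4. Its level was -0.44, -0.96, -0.56 and -0.72 in control libraries 1 to 4 and -0.57, -0.26, -0.11 and -0.52 in knockout libraries 1 to 4. The groups overlapped, and the difference of 0.31 had a 95% confidence interval of -0.04 to 0.65 (limma without the filter, adjusted p = 0.231). It was 0.29 within replicates 1 and 2 and 0.33 within replicates 3 and 4.

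TIMP1 is a soluble inhibitor that forms a complex with the precursor of MMP9. The gene lies on chromosome X (47582436 to 47586789), within SYN1 on the opposite strand. The kit marks strand, but whether the counting used it is not given in the sources used here. GENCODE 29 also places WTAPP1 across MMP1 and MMP3 and SLC12A5-AS1 across MMP9, and other opposite-strand genes overlap MMP2, TIMP2 and BSG. On the same strand, CEP295NL overlaps TIMP2 and AC007336.3 overlaps MMP2, which strand alone would not separate. The log2 level of TIMP1 was 5.51, 5.52, 5.05 and 5.43 in control libraries 1 to 4 and 4.44, 4.42, 4.59 and 4.66 in knockout libraries 1 to 4. All knockout libraries lay below control library 3, the lowest control. TIMP1 fell 1.80-fold, by a log2 difference of -0.85 ± 0.12 (SE; limma adjusted p = 0.00491), with -1.08 for replicates 1 and 2 and -0.61 for replicates 3 and 4. With the knockout pairs averaged the limma adjusted p was 0.0566.

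TIMP2 and TIMP3 did not pass the test. TIMP2 (chromosome 17, 78852977 to 78925387), the inhibitor that links MMP14 to MMP2, was 2.40, 2.47, 2.55 and 2.64 in control libraries 1 to 4 and 2.30, 2.48, 2.90 and 2.99 in knockout libraries 1 to 4. Knockout library 1 was below all controls, library 2 among them, and libraries 3 and 4 above them. The difference was 0.16 (95% confidence interval -0.19 to 0.51; limma adjusted p = 0.539), with -0.04 for replicates 1 and 2 and 0.35 for replicates 3 and 4. TIMP3 (chromosome 22, 32801705 to 32863041), which binds to the matrix, lies within SYN3 on the opposite strand. It was 6.04, 6.01, 6.48 and 6.21 in control libraries 1 to 4 and 5.72, 5.83, 6.96 and 6.98 in knockout libraries 1 to 4. As for MMP2, the knockout pairs stood on opposite sides of all controls, although with smaller distances, -0.25 for replicates 1 and 2 and 0.62 for replicates 3 and 4. The difference over all libraries was 0.19 (95% confidence interval -0.51 to 0.88; limma adjusted p = 0.723).

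BSG (chromosome 19, 571283 to 583493) had the smallest range of the 10 genes over the 8 libraries. It was 6.51, 6.53, 6.45 and 6.54 in control libraries 1 to 4 and 6.28, 6.31, 6.55 and 6.54 in knockout libraries 1 to 4. The difference was -0.09 (95% confidence interval -0.27 to 0.10; limma adjusted p = 0.525), with -0.22 and 0.05 within the replicate sets, so a fall of the size seen for MMP1 or TIMP1 lay outside the interval. BSG, TIMP3, MMP2 and MMP3 were the members whose knockout pairs stood on opposite sides of all controls, 4 of 10, where 12.7% of 13943 genes did so. For BSG knockout library 4 stood above the highest control by less than the printed digits show. BSG, TIMP3 and MMP2 were lower in knockout libraries 1 and 2, and MMP3 was higher there.

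**Figure D2:**
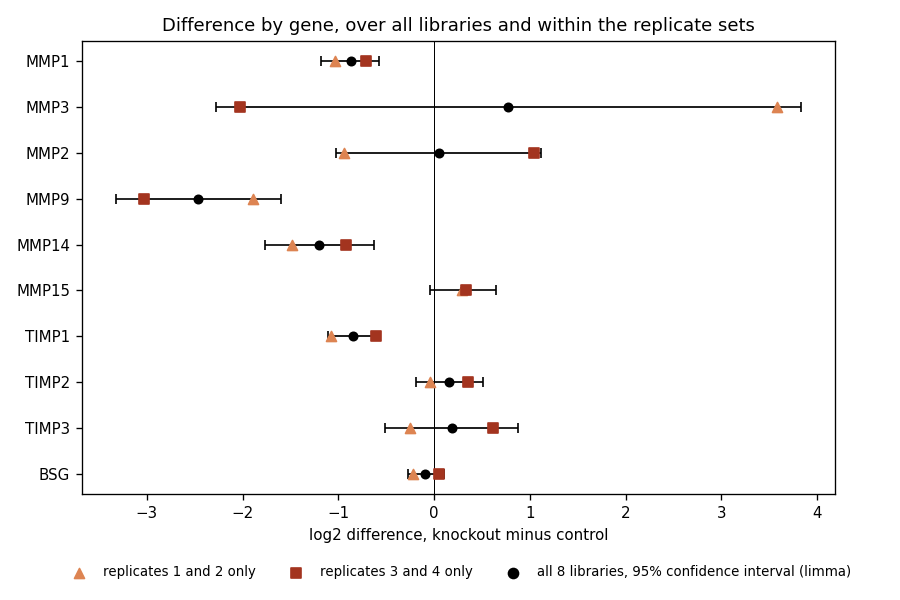
Log2 difference, knockout minus control (horizontal axis), for each gene: black points and bars are the limma estimate over all 8 libraries with its 95% confidence interval, triangles use replicates 1 and 2 only and squares replicates 3 and 4 only. The intervals of MMP1, MMP9, MMP14 and TIMP1 lie below 0, and the wide intervals of MMP3 (-2.28 to 3.83) and MMP2 (-1.02 to 1.12) reflect replicate sets on opposite sides of 0.

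Promoter sequences are shown for MMP14 and TIMP1, which fell, for MMP10, a neighbour of MMP1 that also fell, and for TIMP3, which did not pass the test, so that the sequence upstream of genes that fell can be read beside one that did not. They are the last 120 bases before the annotated start, 5′ to 3′ on the strand of the gene (RefSeq, GRCh38.p14). The table held promoters for 5 of the 10 genes, MMP14, MMP15, TIMP1, TIMP3 and BSG (6 windows). Capitals mark matches on either strand to 4 motifs bound by factors known to act on this family: AP-1 (TGANTCA), an ETS motif (AGGAAG), the GC box (GGGCGG) and the NF-kB consensus. The windows are chr14:22836465-22836584 (plus strand), chrX:47582316-47582435 (plus), chr11:102780629-102780748 (minus) and chr22:32801585-32801704 (plus).
MMP14: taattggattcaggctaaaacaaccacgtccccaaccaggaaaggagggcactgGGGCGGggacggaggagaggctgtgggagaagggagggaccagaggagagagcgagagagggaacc
TIMP1: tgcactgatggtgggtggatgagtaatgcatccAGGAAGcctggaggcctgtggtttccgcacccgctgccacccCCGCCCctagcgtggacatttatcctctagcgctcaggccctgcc
MMP10: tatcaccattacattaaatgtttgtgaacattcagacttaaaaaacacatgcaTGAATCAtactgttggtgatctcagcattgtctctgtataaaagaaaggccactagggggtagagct
TIMP3: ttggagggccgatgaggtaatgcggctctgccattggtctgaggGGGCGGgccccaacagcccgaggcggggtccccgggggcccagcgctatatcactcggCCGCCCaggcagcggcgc
Over the full 250 bases before the start, none of the 6 windows of the members held the AP-1 letters, and MMP10 held them once, 67 to 61 bases before its start. Of 35116 promoters of that length, 6.57% held the AP-1 motif, 28.7% the ETS motif, 42.6% the GC box and 5.21% the NF-kB consensus. The GC box was found once upstream of MMP14, 2 times upstream of TIMP1, 0 times upstream of MMP10 and 5 times upstream of TIMP3. Upstream of the members not printed, it was found 5 times for MMP15, and 0 and 3 times in the windows of BSG. The ETS motif was found 1 time upstream of TIMP1, 1 time in 1 window of BSG and 0 times in the other windows of the members and in that of MMP10. The NF-kB consensus was found 0 times in the windows of the members and of MMP10. A match describes letters only and is no evidence of binding. A miss is no evidence that a site is absent, since only the exact letters given were sought. Near matches, such as tgagtaa beside the ETS match of TIMP1, were neither marked nor counted.

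MMP1 and MMP3 belong to a row of 9 metalloproteinase genes on chromosome 11 that spans 435 kb with no other protein-coding gene among them. In order they are MMP7, MMP20, MMP27, MMP8, MMP10, MMP1, MMP3, MMP12 and MMP13, and those outside the 10 genes are named here for their position, after their values were seen. MMP10, stromelysin-2, was the only one of 17 other MMP genes with a mean of at least 1. It was 1.97, 2.08, 1.25 and 1.86 in control libraries 1 to 4 and 0.12, 0.15, 0.72 and 0.86 in knockout libraries 1 to 4, a log2 difference of -1.33 ± 0.23 (SE; limma adjusted p = 0.00979). MMP10 and MMP1 thus lay below all controls in every knockout library, whereas MMP3 did so in libraries 3 and 4 only. MMP13, another collagenase, was 0.54 and 0.63 in knockout libraries 1 and 2 and -0.42 and -0.96 in knockout libraries 3 and 4, against 0.60 to 0.74 in the controls (limma without the filter, adjusted p = 0.221). MMP7, MMP12, MMP8 and MMP20 had blank cells and rested on about 16 reads or fewer in any library, and MMP27 was blank throughout. Transcripts of MMP3 and MMP10 share an exact run of 96 bases, so some of their reads could be assigned to either gene; the longest run that MMP1 shares with another metalloproteinase or TIMP compared was 18 bases.

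**Figure D3:**
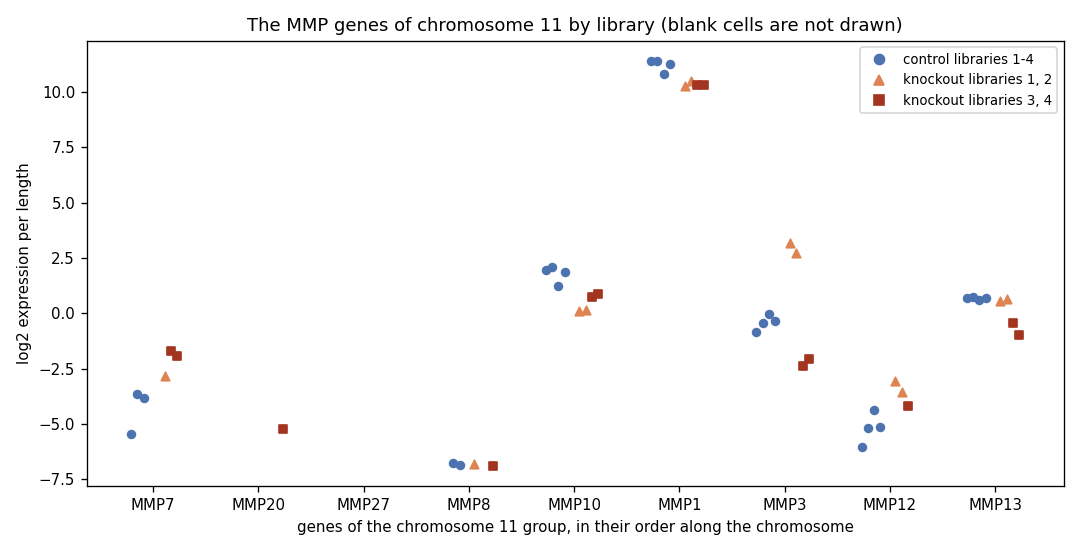
Log2 expression per length (vertical axis) of the 9 metalloproteinase genes of the chromosome 11 row, in their order along the chromosome (not to distance), for control libraries (circles), knockout libraries 1 and 2 (triangles) and knockout libraries 3 and 4 (squares). MMP1 stands near 11 and falls in all knockout libraries, as does MMP10 at a lower level, while the knockout values of MMP3 lie both above and below its controls.

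Of the 17 other MMP genes, 11 had a value in all 8 libraries, 4 in some and 2, MMP26 and MMP27, in none. MMP10 was the only one called. A further 3 inhibitors passed the filter, and none was called (limma; 2 of the 3 had an unadjusted p under 0.05). TIMP4, the remaining TIMP, averaged 2.56 ± 0.49 over the control libraries and 1.48 ± 0.54 over the knockout libraries (SD, n = 4 per group). The log2 difference was -1.08, with a limma adjusted p of 0.0524, of 0.02 with the replicate number as a block and of 0.16 with the knockout pairs averaged. RECK, a membrane-anchored inhibitor of several metalloproteinases, differed by 0.29 (limma adjusted p = 0.127) and TFPI2 by -0.12 (limma adjusted p = 0.622).

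The balance of protease and inhibitor transcripts was described by the log2 difference within a library, without a test. MMP9 minus TIMP1 was -1.13, -1.09, -1.19 and -1.17 in control libraries 1 to 4 and -1.91, -1.92, -3.60 and -3.60 in knockout libraries 1 to 4. The difference was lower in every knockout library than in any control, with a change of -1.61 in the mean. MMP14 minus TIMP2 went from 3.75 ± 0.23 in control libraries to 2.39 ± 0.21 in knockout libraries (SD, n = 4 per group), a change of -1.36. MMP2 minus TIMP2 was 0.18 to 0.48 in the controls, -0.44 and -0.53 in knockout libraries 1 and 2, and 0.88 and 0.89 in knockout libraries 3 and 4. A further 2 differences were added after the values were seen. MMP1 minus TIMP1 averaged 5.84 ± 0.06 in control libraries and 5.82 ± 0.17 in knockout libraries, since both genes fell by like amounts. MMP14 minus TIMP3 averaged 0.07 ± 0.05 in control libraries and -1.32 ± 0.17 in knockout libraries, with a narrow range in each group although TIMP3 itself differed between the knockout pairs.

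**Figure D4:**
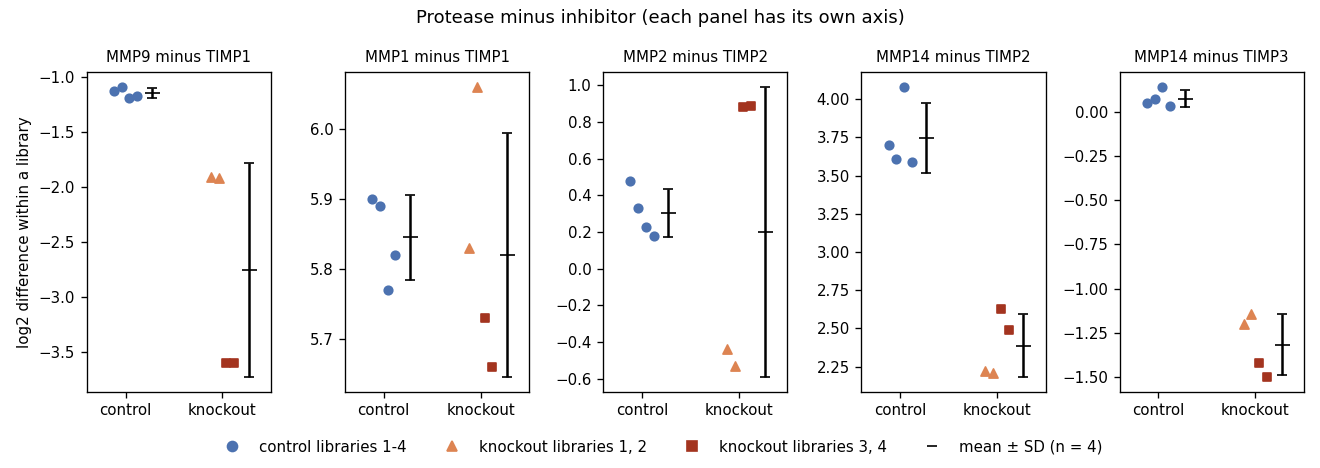
Log2 difference between a protease and an inhibitor within each library (vertical axis, separate for each panel), with the mean and SD (n = 4). MMP9 minus TIMP1, MMP14 minus TIMP2 and MMP14 minus TIMP3 are lower in all 4 knockout libraries, MMP1 minus TIMP1 stays between 5.66 and 6.06 in all 8, and MMP2 minus TIMP2 splits the knockout libraries into pairs.

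For each gene that fell, the tested genes nearest to it in profile were sought by the root mean square distance, in log2 units over the 8 libraries, between deviations from the control mean. Nearest to MMP9 were RELB (0.63), a subunit of NF-kB, RASSF4 (0.66), BIRC3 (0.71), an inhibitor of apoptosis, ICAM1 (0.76), an adhesion receptor, and DEPP1 (0.77). No tested gene lay closer to MMP9 than 0.63, whereas the other 3 genes that fell had their nearest neighbours at 0.06 to 0.16. BIRC3 was 1.76 and 1.77 in knockout libraries 1 and 2 and -0.51 and -0.64 in knockout libraries 3 and 4, against 2.10 to 2.24 in the controls, so like MMP9 it was lowest in libraries 3 and 4. Nearest to MMP14 were ANPEP (0.16), an aminopeptidase of the cell surface, SULF2 (0.17), RTN1 (0.18), RIPK4 (0.21) and FN1 (0.22), which encodes fibronectin. Nearest to MMP1 were HID1 (0.06), MOB3A (0.10), TMEM132A (0.11), SNX21 (0.11) and the syndecan gene SDC4 (0.11). Nearest to TIMP1 were CADM1 (0.07), S100A10 (0.08), MOB3A (0.08), ZNF713 (0.10) and IL27RA (0.11). Among the 10 genes themselves, MMP1 and TIMP1 were the closest pair at 0.11. MMP9 was at least 1.23 from each of the others, and MMP3 stood farther still, at least 1.93 from each. The distance is not scaled to the size of a change, which among the genes that fell was largest for MMP9.

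Transcription factors known to act on metalloproteinase promoters were read as a list of 22 genes, of which 18 were tested, 7 fell, 1 rose and 10 did not pass, where 6.1% of all tested genes fell and 7.02% rose. Their median log2 difference was -0.17, against 0.01 for all tested genes. With the replicate block the counts were 5 lower and 0 higher, in a fit that called 10.2% of all genes, and with the knockout pairs averaged 2 lower, where 1.2% were called. The 4 largest changes were falls of RELB (-1.65, limma adjusted p = 0.00427), EGR1 (-1.29, adjusted p = 0.0155), NFKB2 (-0.91, adjusted p = 0.0176) and JUNB (-0.71, adjusted p = 0.00117). RELB and NFKB2 are subunits of NF-kB, JUNB a subunit of AP-1 and EGR1 a zinc-finger factor. FOS, another AP-1 subunit, was higher in replicates 3 and 4 than in replicates 1 and 2 in both groups: it was 2.15 and 2.29 in control libraries 1 and 2, 5.17 and 3.97 in control libraries 3 and 4, 1.28 and 2.01 in knockout libraries 1 and 2, and 5.60 and 5.55 in knockout libraries 3 and 4. FOS is named because of this pattern, after its values were seen, and its part in the split of MMP2 and MMP3 was not tested.

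Of 9 genes for activators of the precursors, 6 were tested and 1 fell (background 6.1%), CTSB, the lysosomal protease cathepsin B (-0.52, limma adjusted p = 0.00969). FURIN, the convertase that activates MMP14, differed by -0.22 (limma adjusted p = 0.576), with -0.70 for replicates 1 and 2 and 0.25 for replicates 3 and 4, and PLAU, the urokinase gene, by 0.16 (limma adjusted p = 0.653). Both are named for their role, outside the rule. Of 11 surface and binding partners, 9 were tested, 2 rose, 2 fell and 5 did not pass, against 7.02% higher and 6.1% lower over all tested genes. Their median log2 difference was -0.04, with -0.21 within replicates 1 and 2 and 0.16 within replicates 3 and 4. SRGN, a proteoglycan that binds the precursor of MMP9, rose by 1.36 (limma adjusted p = 0.00762) and CAV1, a caveolar protein, by 0.60 (adjusted p = 0.0268). The integrin subunits ITGAV and ITGB1 fell by 0.65 and 0.34 (limma adjusted p = 0.0113 and 0.0171). No gene passed the limma test among the 7 tested partners of basigin, which include the lactate transporters SLC16A1 and SLC16A3. SLC16A3, which differed by -0.30, was the 1 gene of the 7 with an unadjusted limma p under 0.05.

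Of 16 substrates, 8 were tested and 2 fell (background 6.1%), FN1 (-1.26, limma adjusted p = 0.0261) and VCAN, a large proteoglycan (-0.51, adjusted p = 0.0261). The median log2 difference of the 8 was -0.58, against 0.01 over all tested genes. It was -0.62 within replicates 1 and 2, where 1 of the 8 was above 0, and 0.25 within replicates 3 and 4, where 5 were. Transcripts of collagens I and III, which MMP1 cleaves, were scarce: COL1A2, COL3A1 and the small proteoglycan DCN had blank cells and COL1A1 stood at 0.06 ± 0.47 in the controls (SD, n = 4), against 11.22 for MMP1. With the knockout pairs averaged, RELB, JUNB and SRGN stayed under the threshold among the called genes named from these lists, and MMP10, EGR1, NFKB2, CTSB, CAV1, ITGAV, ITGB1, FN1 and VCAN did not (limma adjusted p from 0.0642 for EGR1 to 0.145 for CAV1). The collagen IV genes, whose products the gelatinases cleave, split in the same way as MMP2. COL4A1 was 4.44 to 4.59 in the controls, 2.67 and 2.92 in knockout libraries 1 and 2, and 4.91 and 5.03 in knockout libraries 3 and 4 (limma adjusted p = 0.457). COL4A1 was named after its values were seen.

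Because MMP9 is also made by neutrophils, macrophages and osteoclasts, markers of these cells were read in the same libraries. For neutrophils, 3 of 5 markers (MPO, ELANE and CSF3R) were blank in all 8 libraries and the summed linear level of the 5 was at most 0.0299 in any library. Of 4 general leukocyte markers, PTPRC was blank throughout and CD53 was blank in 4 libraries and below -4 in the others. LAPTM5 was -0.82, -0.27, -1.23 and -0.43 in control libraries 1 to 4 and -2.09, -2.02, -3.38 and -2.98 in knockout libraries 1 to 4, so like MMP9 it was lower in every knockout library than in any control (difference -1.93, limma without the filter, adjusted p = 0.0204; 0.123 with the knockout pairs averaged). CORO1A was higher in every knockout library, by 0.86 (limma without the filter, adjusted p = 0.00583; 0.0979 with the pairs averaged). These genes were named after their values were seen, and the summed linear level of the 4 markers was 1.35 to 1.7 in the controls and 1.77 to 1.8 in the knockouts. Macrophage markers summed to 53.1 to 60.2 in the controls and 46.7 to 59.8 in the knockouts, nearly all of it CD68, a lysosomal gene, with CSF1R below -3 in every library. Osteoclast markers summed to 7.39 to 13 in the controls and 2.46 to 9.66 in the knockouts, and OSCAR made up most of that. OSCAR was 0.97 and 1.02 in knockout libraries 3 and 4 and 3.02 and 3.20 in knockout libraries 1 and 2, against 2.80 to 3.67 in the controls. Its difference was -1.31 (limma adjusted p = 0.142). ACP5 and CTSK, both low, differed the other way, by 0.70 and 0.39 (limma without the filter, adjusted p = 0.119 and 0.191). DCSTAMP had blank cells and CALCR was blank throughout. Endothelial markers summed to at most 0.663. Of 5 epithelial markers 1 passed the filter, EPCAM, at 2.59 ± 0.15 in the controls (SD, n = 4). The part of other cell types in the fall of MMP9 was not tested beyond these levels.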

How the data were processed

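RNA of 143B cells was sequenced in 4 control and 4 knockout libraries, grouped by sample title; columns were matched by their description labels. The authors deposited 1 log2 value per gene symbol and library. Per the submitters' processing notes, GRCh38, bcl2fastq and Partek 7.0 were used; the aligner, the counter and the rule for blank cells are not given in the sources used here. Equal quantiles in all columns show that the deposited values were quantile normalized. Per-length scale and base 2 were read from the values: of genes with 1 GENCODE 29 transcript and a value below -3, 39.7% to 47.4% lay within 0.15 log2 units of the steps for 1, 2 or 3 reads. Read numbers printed were computed from these steps and the longest transcript; they are estimates that cover counting error only, and true depth is unknown.

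Genes without a blank cell whose mean was 1 or more were fitted with limma 3.58.1 in R 4.3.3 (knockout minus control, no covariate), with Benjamini-Hochberg adjustment over all 9016. The fit was tested on simulated data with independent libraries, which lack the close knockout pairs seen here. The labels call the libraries biological replicates. Deviations from the group means correlated at 0.20 to 0.29 in each of the 4 same-numbered pairs. Differently numbered libraries were not compared in this way, so the values cannot show that the numbers pair the libraries, and the labels do not state it. A replicate block was therefore an alternative only. Other alternatives were filters, scaling, a pseudocount of 1, the variance model, a batch term, averaged knockout pairs, replicate sets, leaving out each library and an adjusted p under 0.01. List counts under alternatives were added after the data were seen. Named genes were the 10 members, other MMP genes and inhibitors with a mean of at least 1, at most the 4 largest called genes of each other list, and the 5 nearest profiles of each called member. The members and lists were chosen with earlier results of these data known. No column was left out. A gene of the marker lists is not reported here.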

Additional observations from a re-analysis of the deposited data

Results flagged for a closer look

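None of the 10 genes had a library far from the others of its group by Dixon's criterion for groups of 4. The criterion looks for a lone library, so it cannot flag a group split into close pairs, such as the knockouts of MMP3 and MMP2. Among all 171 groups of 4 values examined, 7 held such a library, and chance flags about 1 in 20. Control library 3 stood apart for MMP25 (-2.93, others -2.31 to -2.22), FURIN (3.26, others 3.22), CD151 (6.76, others 6.55) and PPIB (9.32, others 9.54 to 9.57). A2M stood apart in control library 4 (-0.93, others -1.57 to -1.46), FOSL1 in control library 2 (5.85, others 5.91 to 5.92) and SNAI1 in knockout library 1 (0.44, others 0.76 to 0.81).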

How the results depend on the processing

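Of the 10 genes, 4 were called over all 8 libraries, 3 to 4 when 1 library was left out, 1 with the knockout pairs averaged, 8 in replicates 1-2 only and 8 in replicates 3-4 only; the last fits rest on pairs that hardly differ within a group. Genes called in all numbered 1183, against 391 to 1353 when 1 library was left out, 108 with averaged pairs, 2274 with the batch term for the replicate sets, 5380 in replicates 1-2 only, 2987 in replicates 3-4 only, 729 with a mean of at least 3 and 272 at an adjusted p under 0.01. With the replicate block 924 genes were called and the same 4 of the 10; in the lists the block changed the counts of transcription factors (8 to 5), of other inhibitors (0 to 1) and of substrates (2 to 3). The direction of MMP1, MMP9, MMP14, TIMP1 and MMP15 held in every alternative run. In replicates 1-2 only, the differences of MMP2 (-0.94), TIMP2 (-0.04) and TIMP3 (-0.25) were reversed, and in replicates 3-4 only those of MMP3 (-2.03) and BSG (0.05). When 1 library was left out, MMP3 ranged from -0.17 to 1.69, MMP2 from -0.29 to 0.39 and TIMP3 from -0.02 to 0.41. MMP2, MMP9 and TIMP2 had no value under the filter of at least 3. For the 10 genes no cell was blank, so no cell was filled. Median centring and a further quantile normalization changed no call of the 10. Depth limits MMP3 and MMP15 most; the cause of the split between replicate sets was not tested.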
